A study of Mus musculus with 110 samples.

Results

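Methionine, an essential sulphur amino acid, is activated and broken down by a short chain of enzymes, and the 10 genes described here encode that chain. They were chosen by name, for their place in the pathway, as Mat1a, Mat2a, Mat2b, Gnmt, Ahcy, Bhmt, Bhmt2, Mtr, Cbs and Cth, from 56884 genes in the count tables. Earlier results of these data were known when they were chosen. All 10 were found in every table.

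Methionine adenosyltransferase joins methionine to ATP and makes S-adenosylmethionine (SAM), the methyl donor of most methylation reactions. Methyl transfer leaves S-adenosylhomocysteine, which is split to homocysteine, and homocysteine is either methylated back to methionine or passed through transsulfuration to cysteine. Liver is the main site of this metabolism, and hepatocytes use a methionine adenosyltransferase subunit of their own, while most other cells use the product of another gene.

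RNA was sequenced from male C57BL/6N mice, single-housed and 16 weeks old at the end, in a 2 by 2 design of diet and temperature. Per the labels, Ctrl diet held 0.86% methionine (the study's methods give a lower value for it) and MetR diet 0.12%, and both held 0% cysteine, so every group lacked dietary cysteine. Mice ate the diets for 7 days at 22 °C (RT groups), or had an added day with 24 h at 4 °C (CE groups), which gives Ctrl_RT, MetR_RT, Ctrl_CE and MetR_CE. Liver was read in 7 mice per group, interscapular brown fat (iBAT) in 6, 7, 6 and 7, inguinal white fat (iWAT) in 7, 7, 7 and 6, and epididymal white fat (eWAT) in 4, 6, 7 and 7, in that order of groups.

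Liver libraries held 6987895 to 33444374 counts, iBAT libraries 12672686 to 31232349, iWAT libraries 16607493 to 33141066 and eWAT libraries 22625093 to 33372110. These ranges and the eWAT and iBAT group sizes leave out 5 libraries that the study excluded, which were found from its source data. In iBAT, 3 libraries that were grouped by title (MetR_RT, Ctrl_CE and MetR_CE replicate 1) carry a treatment tag of another group. Hepatocyte markers marked the liver libraries, with a summed level of 73600 to 142100 CPM (counts scaled to a common library size and normalised between libraries), and Ucp1, the uncoupling protein of brown fat, was at 0 in all 28 of them. In iBAT, Ucp1 lay between 5819 and 14810 CPM.

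Promoters are shown for 3 genes whose levels the results turn on: Mat2a, which moved in all 4 tissues, and the neighbours Bhmt and Bhmt2, which moved with diet in liver. Each sequence runs from 250 bases before to 50 after the start, on the minus strand of GRCm38.p6, from RefSeq. They lie at chr6:72439507-72439806 for Mat2a, chr13:93637709-93638008 for Bhmt and chr13:93674253-93674552 for Bhmt2. Capitals mark matches on either strand to 4 motifs: TGATGNAA (searched as the amino acid response element core), CACGTG (the E-box), CCAAT (the CCAAT box) and TATAAA (the TATA box).
Mat2a: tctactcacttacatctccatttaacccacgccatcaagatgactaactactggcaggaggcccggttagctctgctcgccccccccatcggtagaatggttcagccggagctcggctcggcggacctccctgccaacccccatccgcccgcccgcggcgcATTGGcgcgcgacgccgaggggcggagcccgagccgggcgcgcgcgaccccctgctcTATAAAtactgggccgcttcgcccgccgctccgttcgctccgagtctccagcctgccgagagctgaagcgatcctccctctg
Bhmt: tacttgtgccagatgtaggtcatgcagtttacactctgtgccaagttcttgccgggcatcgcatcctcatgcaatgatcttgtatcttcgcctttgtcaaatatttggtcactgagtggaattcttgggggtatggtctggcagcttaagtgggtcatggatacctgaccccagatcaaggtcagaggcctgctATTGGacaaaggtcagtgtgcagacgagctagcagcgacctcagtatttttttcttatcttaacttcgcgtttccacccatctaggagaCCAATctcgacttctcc
Bhmt2: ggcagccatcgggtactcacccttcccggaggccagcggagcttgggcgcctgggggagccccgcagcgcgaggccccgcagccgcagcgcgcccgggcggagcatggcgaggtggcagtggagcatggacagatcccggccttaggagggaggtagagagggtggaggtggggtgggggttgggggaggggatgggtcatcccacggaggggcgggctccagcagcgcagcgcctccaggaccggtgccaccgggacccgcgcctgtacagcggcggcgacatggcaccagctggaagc
The Mat2a promoter held TATAAA at base -32 and CCAAT on the other strand at base -89. The Bhmt promoter held CCAAT at base -56 on the other strand and at base 34, and the Bhmt2 promoter held none of the 4 motifs. Of 32817 promoters of this length, 37.4% held CCAAT, 13.6% TATAAA, 7.15% CACGTG and 3.97% TGATGNAA. TGATGNAA was in none of the 8 member promoters given, and CACGTG was in that of Cbs alone. Mat1a and Cth had no entry.

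Bhmt (chromosome 13, 93616675 to 93637961) and Bhmt2 (93655720 to 93674302) stood 17759 bases apart on the minus strand, in the GENCODE vM21 annotation of GRCm38. The Bhmt start there, 93637961, falls within the printed RefSeq window, so most of that sequence lies inside the GENCODE gene. Base positions given for the Bhmt promoter are counted from the RefSeq start. The start of Dmgdh, whose enzyme takes up the dimethylglycine that the Bhmt reaction leaves, was 131 bases from that of Bhmt2 on the opposite strand.

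The level per length, in TPM (counts per transcript length, scaled to a common total per library), ordered the members differently in liver and in fat. In Ctrl_RT liver, Gnmt had a median of 2744 TPM, Mat1a 1754, Bhmt 841.4 and Ahcy 439.1, with ranges that overlapped from each to the next. Bhmt2, Cth and Cbs followed with 286.7, 220.3 and 216.8 TPM, and their ranges overlapped too. Mat2a with 41.7, Mat2b with 15.5 and Mtr with 2.72 stood apart from those above and from each other.

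In the 3 fat depots the order turned. Mat2a was the highest member in each, with medians of 71.2, 188.3 and 204.6 TPM in iBAT, iWAT and eWAT. Mat2b came second with 40.2, 38.2 and 41.9, apart from Mat2a in every depot. Liver held 376 times the TPM of the highest depot for Gnmt, 49 times for Cbs, 29.1 times for Ahcy and 21.5 times for Cth. For Mat2a, Mat2b and Mtr it held 0.204, 0.369 and 0.226 times the highest depot. These levels were normalised within each library only, so the sizes are descriptions across tissues.

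**Figure D1:**
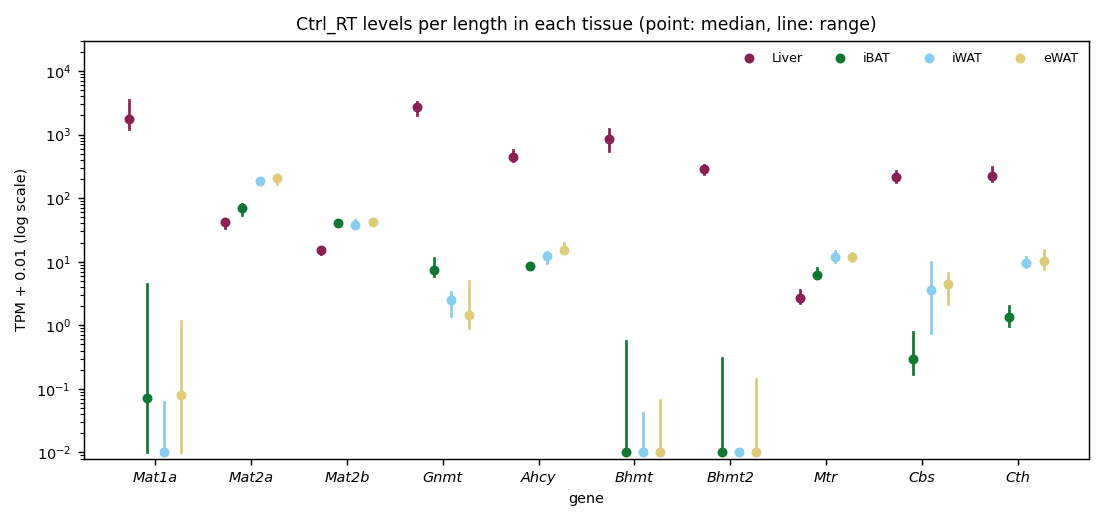
Level per length of the 10 genes in Ctrl_RT, with genes on the x axis and TPM + 0.01 on a log y axis; points are medians and lines the range over 7 liver, 6 iBAT, 7 iWAT and 4 eWAT libraries. Gnmt, Ahcy, Cbs and Cth lie highest in liver, Mat2a, Mat2b and Mtr lie lowest there, and Mat1a, Bhmt and Bhmt2 lie at or near 0 in the depots.

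Methionine restriction at room temperature moved 9 of the 10 genes in liver: 7 rose (Mat1a, Mat2a, Mat2b, Gnmt, Mtr, Cbs and Cth), Bhmt and Bhmt2 fell, and Ahcy was not called. A gene was called at an adjusted p under 0.05 in edgeR's quasi-likelihood test over 22143 genes, and 18.8% of all genes were called in this comparison, 10.1% higher and 8.7% lower. Of the 9, Mat1a, Gnmt, Bhmt and Cth changed by at least 1.5-fold, against 6.91% of all genes. The median log2 fold change was 0.38 over the members and 0.0045 over all genes.

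Cold on the Ctrl diet raised 4 of 10 (Mat1a, Gnmt, Mtr and Cth) and lowered none, where 28.8% of all genes were called, 14.7% higher and 14.2% lower. Both stimuli against Ctrl_RT raised 6 of 10 (30.3% of all genes called, 15.2% in each direction). Cold on top of restriction raised Mat1a, Bhmt and Bhmt2 and lowered Mat2b (18% called, 8.42% higher and 9.58% lower). Restriction during cold raised Mat1a and Mat2a (12.1% called, 5.5% higher and 6.62% lower), and the difference of the diet effect between temperatures, the interaction, was called for Bhmt alone (1.76% called, 0.655% higher and 1.1% lower). The 3 comparisons with Ctrl_RT share its 7 libraries.

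**Figure D2:**
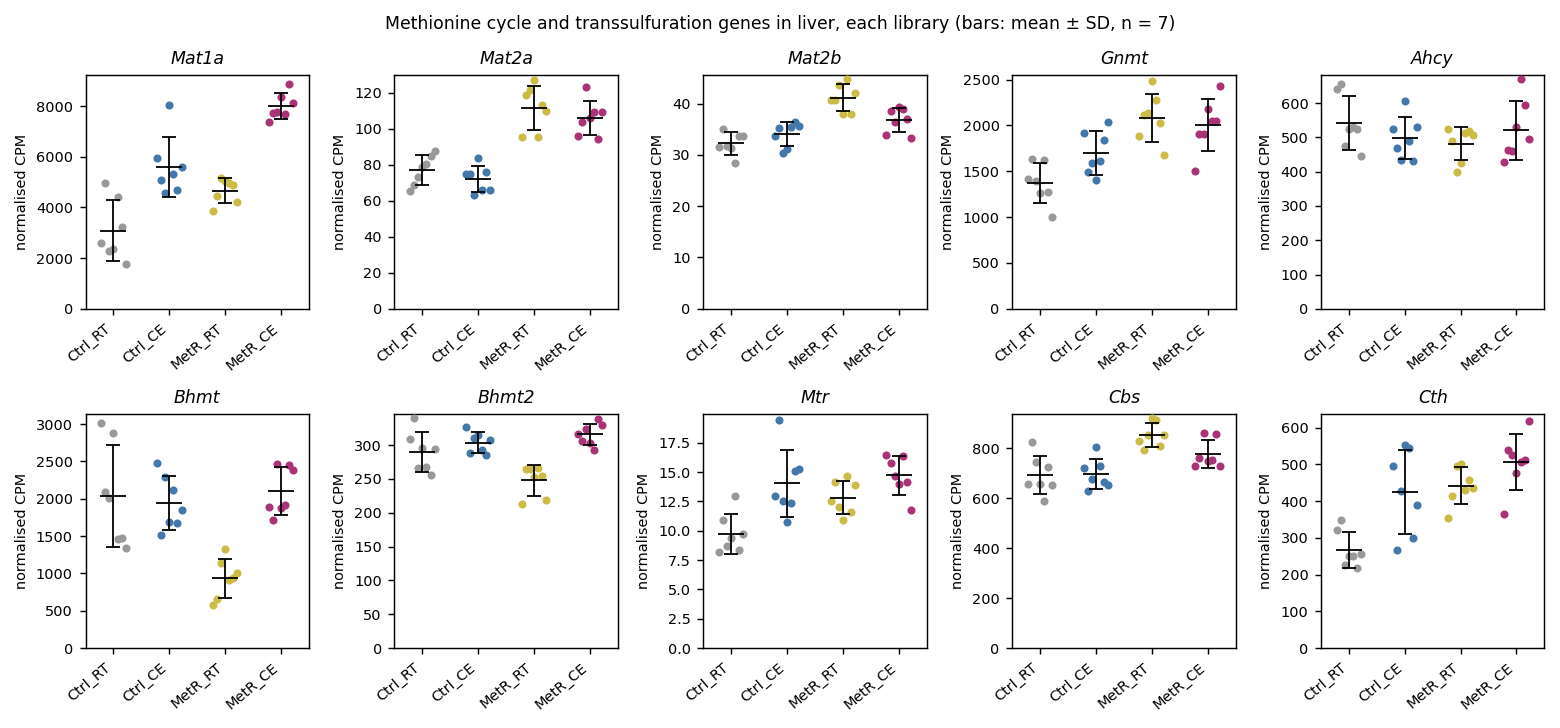
Normalised CPM of each gene in liver (y axes from 0), by group, each point 1 of 7 libraries and bars the mean ± SD. Bhmt lies lower in MetR_RT than in the other groups, Mat1a rises to its highest values in MetR_CE, and Mat2a lies higher in both MetR groups than in both Ctrl groups.

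Mat1a encodes the methionine adenosyltransferase subunit of hepatocytes (chromosome 14, 41105035 to 41124412). Its lowest, median and highest levels in liver were 1755, 2598 and 4962 CPM in Ctrl_RT, 3869, 4904 and 5149 in MetR_RT, then 4583, 5325 and 8046 in Ctrl_CE and 7386, 7756 and 8894 in MetR_CE. All 7 MetR_CE libraries lay above all of Ctrl_RT and MetR_RT, while MetR_RT and Ctrl_CE each overlapped Ctrl_RT in CPM. In TPM, Ctrl_CE (3534 to 5709) lay just above Ctrl_RT (1217 to 3487). Mat1a rose by 0.59 ± 0.16 (log2 fold change ± SE) in MetR_RT (edgeR adjusted p = 0.00821), by 0.86 ± 0.16 in Ctrl_CE (adjusted p = 0.000134) and by 1.37 ± 0.16 in MetR_CE (adjusted p = 1.1e-07). The mean was 7991 CPM in MetR_CE and 3090 in Ctrl_RT, a 2.59-fold difference. MetR_CE also exceeded MetR_RT by 0.78 (adjusted p = 0.000736) and Ctrl_CE by 0.51 (adjusted p = 0.0328), and the interaction was -0.08 (adjusted p = 0.905).

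Mat2a encodes the subunit that most cells outside the hepatocyte use (chromosome 6, 72432799 to 72439558). In liver it ran from 65.2 to 87.8 CPM in Ctrl_RT, from 95.3 to 126.9 in MetR_RT, from 63.3 to 83.9 in Ctrl_CE and from 94.2 to 123.1 in MetR_CE, with medians of 78.6, 113.2, 74.9 and 106.0. Every library on MetR lay above every library on Ctrl at either temperature. The rise was 0.54 ± 0.08 at room temperature (edgeR adjusted p = 1.01e-05) and 0.56 in the cold against Ctrl_CE (adjusted p = 1.99e-05), while cold on Ctrl diet gave -0.09 (adjusted p = 0.409). The antisense gene Particl overlaps Mat2a by 506 bases and had mean levels of 1.72 to 3.96 CPM over the tissues, so reads there may be split.

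Mat2b, which encodes a regulatory subunit that binds the Mat2a product, ran from 28.5 to 35.1 CPM in Ctrl_RT with a median of 31.8, and from 37.9 to 44.9 in MetR_RT with a median of 40.7. The 2 groups did not overlap, and the rise was 0.35 (edgeR adjusted p = 3.59e-05). In MetR_CE it lay between 33.3 and 39.3 CPM, 0.19 above Ctrl_RT (adjusted p = 0.0103) and a log2 difference of -0.16 from MetR_RT (adjusted p = 0.0438). The last call was lost with RLE factors (adjusted p = 0.0553) and without a count filter (adjusted p = 0.0735).

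The ratio of Mat2a to Mat1a counts, which does not depend on a library's scaling, had a mean log2 of -5.25 ± 0.61 in Ctrl_RT (SD, n = 7), -5.39 ± 0.16 in MetR_RT, -6.26 ± 0.21 in Ctrl_CE and -6.24 ± 0.18 in MetR_CE. It was lower in the cold by 1.02 on Ctrl diet, a log2 difference of -1.02 (two-sided exact permutation p = 0.00175, 0.0035 adjusted over 4 comparisons). The difference was -0.99 for MetR_CE against Ctrl_RT (adjusted exact permutation p = 0.0035), -0.14 for MetR_RT (adjusted p = 0.776) and 0.03 between the cold groups (adjusted p = 0.805). The ranges of the 4 groups show the widest spread in Ctrl_RT, from -6.18 to -4.32.

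Gnmt encodes glycine N-methyltransferase, which uses SAM to methylate glycine and is held to take up excess methyl groups in liver (chromosome 17, 46725664 to 46729168). Its lowest, median and highest levels were 1002, 1399 and 1636 CPM in Ctrl_RT, 1674, 2119 and 2482 in MetR_RT, then 1405, 1608 and 2038 in Ctrl_CE and 1506, 2045 and 2429 in MetR_CE. All MetR_RT libraries lay above all Ctrl_RT libraries. The rise was 0.60 ± 0.11 in MetR_RT (edgeR adjusted p = 0.000163), 0.54 in MetR_CE (adjusted p = 0.00023) and 0.31 in Ctrl_CE (adjusted p = 0.0324). The call in Ctrl_CE did not hold with only the compared groups in the model (adjusted p = 0.0501).

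Ahcy encodes S-adenosylhomocysteine hydrolase, the step from S-adenosylhomocysteine to homocysteine (chromosome 2, 155059310 to 155074497). It was called in none of the 6 liver comparisons, and its groups overlapped, with medians of 525.8 CPM in Ctrl_RT, 505.8 in MetR_RT, then 490.9 in Ctrl_CE and 495.0 in MetR_CE. The MetR_RT value was -0.17 (edgeR adjusted p = 0.266). A near copy of Ahcy, Gm4737, shares 99.7% of 2083 bases and had a mean of 3.47 CPM in liver, so reads may be split between them.

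Bhmt encodes betaine-homocysteine methyltransferase, which remethylates homocysteine with a methyl group from betaine. Its lowest, median and highest levels in liver were 1337, 2009 and 3016 CPM in Ctrl_RT, 581.2, 935.2 and 1328 in MetR_RT, then 1510, 1847 and 2477 in Ctrl_CE and 1713, 1921 and 2464 in MetR_CE. In normalised CPM, every MetR_RT library lay below every library of the other 3 groups, which overlapped one another. In TPM, MetR_RT (273.2 to 619.5) overlapped Ctrl_RT (558.7 to 1234) and lay below both cold groups. Bhmt fell by 1.12 ± 0.18 on the log2 scale in MetR_RT (edgeR adjusted p = 3.28e-05), to 0.46 times the Ctrl_RT level. MetR_CE was 0.04 from Ctrl_RT (adjusted p = 0.891) and 1.16 ± 0.18 above MetR_RT (adjusted p = 2.65e-05), and Ctrl_CE gave -0.07 (adjusted p = 0.821). The diet effect differed between temperatures by 1.23 ± 0.25 (interaction adjusted p = 0.00937).

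Bhmt2, whose enzyme methylates homocysteine from S-methylmethionine, lay at 255.8, 293.9 and 339.8 CPM in Ctrl_RT, 212.2, 253.9 and 265.9 in MetR_RT, then 285.1, 307.7 and 326.3 in Ctrl_CE and 292.2, 316.1 and 338.6 in MetR_CE (lowest, median and highest). MetR_RT overlapped Ctrl_RT, and all MetR_CE libraries lay above all MetR_RT libraries. Bhmt2 fell by 0.23 in MetR_RT (edgeR adjusted p = 0.0112) and was 0.35 higher in MetR_CE than in MetR_RT (adjusted p = 0.000208). The interaction of 0.28 was not called (adjusted p = 0.099), but was with DESeq2 (0.29, adjusted p = 0.0244). Dmgdh across the shared start region gave -0.01 in MetR_RT (adjusted p = 0.965) and rose by 0.54 in MetR_CE against MetR_RT (adjusted p = 0.00027).

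Gm5096, a near copy of Bhmt with 99.4% identity over 1869 bases, had a mean of 12.2 CPM in liver and also had the highest rank correlation with Bhmt, 0.918 over 28 libraries. Reads of the 2 genes may be split between them, so that likeness is uncertain. After it came Bhmt2 with 0.796 and Snx19 with 0.761, among 12513 genes with a mean of at least 1 CPM. These are descriptions over libraries that share their 4 groups.

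Mtr encodes methionine synthase, the remethylation with a methyl group from folate and cobalamin as cofactor (chromosome 13, 12182712 to 12258113). It lay at 8.20, 9.40 and 12.97 CPM in Ctrl_RT and 10.9, 12.5 and 14.7 in MetR_RT (lowest, median and highest). The values were 10.7, 12.96 and 19.4 in Ctrl_CE and 11.8, 14.7 and 16.4 in MetR_CE, with overlap throughout in CPM. In TPM, MetR_CE (3.907 to 5.685) lay above Ctrl_RT (2.252 to 3.532). Mtr rose by 0.40 in MetR_RT (edgeR adjusted p = 0.012), 0.54 in Ctrl_CE (adjusted p = 0.000546) and 0.60 in MetR_CE (adjusted p = 0.000125). Of the remethylation genes in MetR_RT liver, Mtr was thus higher and Bhmt and Bhmt2 lower than in Ctrl_RT.

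Cbs encodes cystathionine beta-synthase, the entry to transsulfuration (chromosome 17, 31608894 to 31637238). Its medians were 658.2 CPM in Ctrl_RT (588.6 to 824.3), 851.2 in MetR_RT (792.1 to 920.9), 675.8 in Ctrl_CE (629.4 to 805.1) and 754.1 in MetR_CE (729.3 to 859.4). MetR_RT overlapped Ctrl_RT in normalised CPM, and Cbs rose there by 0.30 (edgeR adjusted p = 0.00231). The MetR_CE value of 0.17 was not called (adjusted p = 0.0697). In TPM, both MetR_RT (279.7 to 330.5) and MetR_CE (276.8 to 332.1) lay above Ctrl_RT (182.5 to 268.4).

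Cth encodes cystathionine gamma-lyase, which releases cysteine (chromosome 3, 157894248 to 157925077). It lay at 218.7, 251.2 and 349.1 CPM in Ctrl_RT, 354.8, 435.3 and 501.3 in MetR_RT, then 265.9, 428.2 and 552.2 in Ctrl_CE and 365.3, 511.5 and 617.3 in MetR_CE (lowest, median and highest). All libraries of MetR_RT and of MetR_CE lay above all of Ctrl_RT, while Ctrl_CE overlapped it. Cth rose by 0.72 ± 0.14 in MetR_RT (edgeR adjusted p = 0.000301), 0.67 in Ctrl_CE (adjusted p = 0.000406) and 0.92 in MetR_CE (adjusted p = 5.15e-06).

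Among the other members with the largest changes, the genes most like Mat1a over the 28 liver libraries were Got1 (Spearman's rho 0.927), Iqgap2 (0.921) and Epb41 (0.90). Those most like Gnmt were Selenbp1 (0.889), Shpk (0.883) and Slc29a1 (0.865). Among those most like Cth were Wwc1 (0.899) and Dip2c (0.839).

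Cell type markers moved with the groups in liver. The summed level of 10 hepatocyte markers was 104400 to 142100 CPM in Ctrl_RT, 86140 to 105300 in MetR_RT, 82830 to 124000 in Ctrl_CE and 73600 to 80500 in MetR_CE, lowest where Mat1a was highest. Its members did not move one way: in MetR_CE against Ctrl_RT 6 of the 10 fell, the fibrinogen genes Fga, Fgb and Fgg, Hpx, Apoa1 and Alb, and 2 rose. The risers were Cps1 of the urea cycle, with medians of 2737 and 5166 CPM, and Ahsg, with 9490 and 12750. The summed level of 7 endothelial, Kupffer and stellate cell markers was 203.2 to 296.5 CPM in Ctrl_RT, at most 274.6 in MetR_RT, then 290.4 to 546.6 in Ctrl_CE and 301.5 to 356.5 in MetR_CE. In bulk tissue, fewer cells of a type and less RNA per cell cannot be told apart, and the part of these shifts in the values above was not tested.

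The genes around the cycle were described from 2 further lists. Of 8 genes of cysteine use, 6 rose and Mpst fell in MetR_RT liver, where 10.1% of all genes rose and 8.7% fell, led by Csad of taurine synthesis (117.0 CPM in Ctrl_RT and 382.5 in MetR_RT, a rise of 1.71, edgeR adjusted p = 0.00102). Gclc, the catalytic subunit of the first enzyme of glutathione synthesis, rose by 1.03 (343.0 to 701.4 CPM, adjusted p = 8.07e-07), and Gclm, its modifier subunit, by 0.47. Cold on top of restriction lowered 6 of the 8 and raised none (9.58% of all genes fell and 8.42% rose), and the interaction was called for Gclc (-0.90, adjusted p = 0.00908) and Gclm (-0.45, adjusted p = 0.00908). Cold on Ctrl diet called 1 of the 8 (28.8% of all genes), Mpst of hydrogen sulphide production, which fell by 0.49 (adjusted p = 7.89e-06). Of 11 support genes of the cycle, Mtrr, which reactivates methionine synthase, and Adk, which clears adenosine, rose in MetR_RT. Among those that fell were Aldh7a1 and Ahcyl2, with Ahcyl2 at -0.86.

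In iBAT restriction alone called 1 of the 9 members tested, Mat1a, a call that rested on 1 library, where 6.8% of all genes were called, 2.9% higher and 3.9% lower. Cold on Ctrl diet called 6 of 9, with Mat2a and Gnmt higher and Mtr, Cbs, Mat1a and Bhmt lower, where 33.2% of 23915 genes were called, 15.3% higher and 17.9% lower. Other settings turned this split, to 4 higher and 2 lower with DESeq2 and with filterByExpr, where Mat1a and Bhmt had no adjusted p, and to 4 and 4 with RLE factors. Without Ctrl_RT replicate 5, which held most of the Mat1a and Bhmt counts, it was 2 and 2, with Mat1a not called and Bhmt too low to be tested. MetR_CE against Ctrl_RT called 5 (33.4% of all genes, 15% higher and 18.5% lower) and MetR_CE against MetR_RT 3 (25.5%, 13.1% higher and 12.4% lower). No member was called in MetR_CE against Ctrl_CE (4.78% of all genes, 2.12% higher and 2.66% lower, 0 members at an unadjusted p under 0.05) or in the interaction (0.903%, 0.439% higher and 0.464% lower, 2 members at an unadjusted p under 0.05, edgeR).

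In iBAT Mat2a lay between 82.5 and 118.8 CPM in Ctrl_RT (median 107.2), 79.6 and 104.1 in MetR_RT (99.5), 121.0 and 138.7 in Ctrl_CE (125.5) and 122.4 and 140.3 in MetR_CE (135.7). Every cold library in the model lay above every room temperature library in normalised CPM. The left-out Ctrl_CE replicate 5 held 105.6 CPM, scaled by its total counts alone. In TPM, Ctrl_CE (78.07 to 97.31) overlapped Ctrl_RT (54.37 to 81.32). Mat2a rose by 0.27 in Ctrl_CE (edgeR adjusted p = 0.00217), by 0.35 in MetR_CE (adjusted p = 0.000124) and by 0.48 in MetR_CE against MetR_RT (adjusted p = 1.08e-06), and MetR_RT gave -0.14 (adjusted p = 0.229).

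Gnmt was low in iBAT, at 2.27 to 4.66 CPM in Ctrl_RT (median 2.92), 2.68 to 4.31 in MetR_RT (3.41), 3.16 to 9.87 in Ctrl_CE (4.43) and 4.74 to 6.84 in MetR_CE (5.92). All MetR_CE libraries lay above all of Ctrl_RT and MetR_RT in normalised CPM, while Ctrl_CE overlapped Ctrl_RT. In TPM, MetR_CE (11.12 to 16.49) overlapped Ctrl_RT (5.892 to 11.42). Gnmt rose by 0.68 in Ctrl_CE (edgeR adjusted p = 0.0128) and by 0.87 in MetR_CE (adjusted p = 0.00133). With only the compared groups in the model the Ctrl_CE call was lost (adjusted p = 0.0575).

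Mtr fell in iBAT in the cold, from 16.2 to 21.3 CPM in Ctrl_RT (median 17.4) and 16.2 to 22.3 in MetR_RT (18.7) to 12.1 to 16.1 in Ctrl_CE (14.9) and 12.1 to 15.5 in MetR_CE (15.02). All cold libraries in the model lay below all room temperature libraries in normalised CPM. In TPM, Ctrl_CE (4.041 to 5.951) overlapped Ctrl_RT (5.611 to 7.818) and MetR_RT (5.569 to 7.72). The change was -0.32 in Ctrl_CE (edgeR adjusted p = 0.00475), -0.30 in MetR_CE (adjusted p = 0.00632) and -0.40 in MetR_CE against MetR_RT (adjusted p = 0.000482). Cbs was near the limit of detection, with 3 to 54 counts a library and the lowest, 3, in 2 MetR_CE libraries, so the sizes of its changes are uncertain. It had medians of 0.699, 0.672, 0.299 and 0.411 CPM in Ctrl_RT, MetR_RT, Ctrl_CE and MetR_CE, and fell by 1.68 in Ctrl_CE (adjusted p = 0.00181) and by 1.35 in MetR_CE (adjusted p = 0.00771). Mat2b, Ahcy and Cth were not called in iBAT by this test. Ahcy lay at 7.19 to 8.58 CPM in Ctrl_RT and 8.66 to 10.5 in Ctrl_CE, all higher by that measure. In TPM, Ctrl_CE (8.738 to 11.56) overlapped Ctrl_RT (7.897 to 9.477). The Ahcy change in Ctrl_CE, 0.22, was just outside the threshold (edgeR adjusted p = 0.0502). It was called there with DESeq2 (adjusted p = 0.0193), RLE factors (adjusted p = 0.0312), filterByExpr (adjusted p = 0.0239) and only the compared groups (adjusted p = 0.0464). Mat2b in Ctrl_CE, at 0.11 (edgeR adjusted p = 0.0796), was called with DESeq2 (adjusted p = 0.0143), RLE factors (adjusted p = 0.0283) and filterByExpr (adjusted p = 0.0194). Grouping the 3 libraries by their tag, or leaving them out, kept every iBAT call of Mat2a, Gnmt, Mtr and Cbs, with Mat2a in Ctrl_CE at 0.35 and 0.29.

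In iWAT restriction called 2 of 9 members, Mat2b higher and Mtr lower (22.4% of 26428 genes, 11% higher and 11.5% lower). Cold on Ctrl diet called 4, 2 in each direction (30.8%, 14.6% higher and 16.2% lower), and both stimuli 4, 3 higher and 1 lower (37%, 17.2% higher and 19.9% lower). The higher calls in both include Mat1a, which had few counts. With DESeq2 and with filterByExpr the splits were 1 higher and 2 lower in cold, and 2 higher and 1 lower with both stimuli. MetR_CE against MetR_RT raised Mat2a and Mat2b (5.41%, 3.16% higher and 2.25% lower), as did MetR_CE against Ctrl_CE (3.37%, 1.5% higher and 1.87% lower). The interaction called Mat2a alone, higher (2.95%, 0.859% higher and 2.09% lower). All genes together had a median log2 fold change of -0.11 in Ctrl_CE, so changes there are relative to that shift.

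Mat2a in iWAT was called in the comparisons of MetR_CE and in neither stimulus alone. It lay at 205.7 to 230.1 CPM in Ctrl_RT (median 221.5), 182.3 to 259.5 in MetR_RT (219.4), 165.6 to 234.4 in Ctrl_CE (204.8) and 277.6 to 348.5 in MetR_CE (294.8). All 6 MetR_CE libraries lay above every other iWAT library in normalised CPM. In TPM, MetR_CE (173.2 to 260.5) overlapped Ctrl_RT (169.0 to 195.7) and MetR_RT (121.6 to 203.3), and Ctrl_CE lay at 119.3 to 162.6. The change was 0.02 in MetR_RT (edgeR adjusted p = 0.896), -0.10 in Ctrl_CE (adjusted p = 0.416) and 0.45 in MetR_CE (adjusted p = 0.000114), and the interaction was 0.53 ± 0.12 (adjusted p = 0.0194).

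Mat2b rose in iWAT in each group: it lay at 48.9 to 58.9 CPM in Ctrl_RT (median 51.8), 57.5 to 68.7 in MetR_RT (62.6), 61.5 to 71.7 in Ctrl_CE (64.3) and 71.2 to 81.5 in MetR_CE (76.1). By normalised CPM, Ctrl_CE and MetR_CE lay wholly above Ctrl_RT, and MetR_RT overlapped it. By TPM every group overlapped Ctrl_RT (37.09 to 44.8), even MetR_CE (42.77 to 54.62). Mean TPM was 47.52 in MetR_CE against 39.52 in Ctrl_RT. A single stimulus left it nearer to Ctrl_RT, at 41.75 with cold and 40.91 with restriction, so those rises were small by that measure. On normalised counts the rise was 0.28 in MetR_RT (edgeR adjusted p = 0.000583), 0.34 in Ctrl_CE (adjusted p = 4.81e-05) and 0.54 in MetR_CE (adjusted p = 1.24e-07). MetR_CE exceeded Ctrl_CE by 0.20 (adjusted p = 0.0449), a call that was lost with RLE factors (adjusted p = 0.0692), without a count filter (adjusted p = 0.0723) and with only the compared groups (adjusted p = 0.0595).

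Mtr fell in iWAT, from 21.6 to 32.5 CPM in Ctrl_RT (median 26.7) to 19.7 to 25.1 in MetR_RT (20.1), 14.6 to 22.8 in Ctrl_CE (16.97) and 14.8 to 19.4 in MetR_CE (19). MetR_CE lay wholly below Ctrl_RT and the other 2 groups overlapped it. The change was -0.35 in MetR_RT (edgeR adjusted p = 0.00916), -0.62 in Ctrl_CE (adjusted p = 2.93e-05) and -0.59 in MetR_CE (adjusted p = 3.58e-05). Cbs varied widely, at 1.62 to 19.4 CPM in Ctrl_RT (median 6.81), 3.33 to 9.72 in MetR_RT (4.33), 0.731 to 4.30 in Ctrl_CE (2.36) and 3.67 to 6.17 in MetR_CE (4.75), and fell in Ctrl_CE (-1.59, adjusted p = 0.00354).

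In the same order of groups, Ctrl_RT, MetR_RT, Ctrl_CE and MetR_CE, the summed level of the 5 macrophage markers in iWAT had medians of 1354, 392.7, 571.5 and 230.0 CPM and that of the 4 brown adipocyte markers 228.0, 1655, 3286 and 4837. The macrophage sum, like Mtr, was lower than in Ctrl_RT in every other group, but the order of those groups differed. The brown adipocyte sum ordered the groups as the normalised CPM of Mat2b did. The part of either in those values was not tested.

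Of 10 support genes tested in iWAT, 5 rose and 1 fell in each of MetR_RT, Ctrl_CE and MetR_CE, where 22.4%, 30.8% and 37% of all genes were called. In MetR_RT the risers were led by Ahcyl1 (0.72), an Ahcy-like protein, and the cobalamin-handling genes Mmachc (0.55) and Mmadhc (0.47), with Sardh (0.51) and Adk (0.43).

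In eWAT no member was called with restriction alone (0.148% of 27786 genes, 0.036% higher and 0.112% lower, 1 member at an unadjusted p under 0.05, 0 by edgeR after adjustment) or with cold alone (5.27%, 2.11% higher and 3.16% lower, 2 members at an unadjusted p under 0.05). Mat2a alone was called in MetR_CE against Ctrl_RT (2.7%, 1.48% higher and 1.22% lower) and against MetR_RT (0.223%, 0.158% higher and 0.0648% lower). Against Ctrl_CE, Mat2a rose and Ahcy and Cth fell (11.5%, 6.38% higher and 5.09% lower). The interaction called none (3.07%, 1.64% higher and 1.43% lower, 2 members at an unadjusted p under 0.05).

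Mat2a in eWAT was 233.0 to 297.9 CPM in the 4 Ctrl_RT libraries (median 255.4), 222.4 to 328.3 in MetR_RT (median 272.4), 219.2 to 291.9 in Ctrl_CE (269.4) and 351.6 to 438.7 in MetR_CE (373.6). Every MetR_CE library lay above every other library. The rise was 0.57 against Ctrl_RT (edgeR adjusted p = 0.00341), 0.47 against MetR_RT (adjusted p = 0.0297) and 0.54 against Ctrl_CE (adjusted p = 0.000401). The interaction was 0.45 and not called (adjusted p = 0.0664), but was with DESeq2 (0.42, adjusted p = 0.0244). The call against MetR_RT was lost without a count filter (adjusted p = 0.0534) and with only the compared groups (adjusted p = 0.068).

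**Figure D3:**
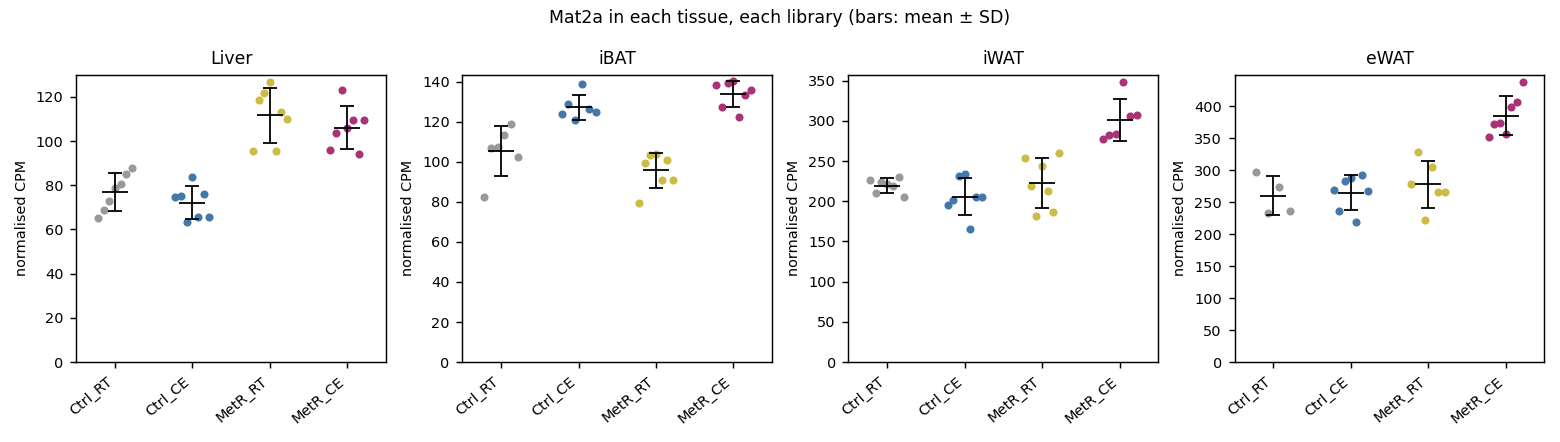
Normalised CPM of Mat2a (y axes from 0) by group in each tissue, each point 1 library and bars the mean ± SD. In iWAT and eWAT the MetR_CE libraries (277.6 to 348.5 and 351.6 to 438.7 CPM) lie above all others, in iBAT both cold groups lie above both room temperature groups, and in liver both MetR groups lie above both Ctrl groups.

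Ahcy in eWAT lay at 11.46 to 16.5 CPM in Ctrl_CE (median 12.3) and 9.27 to 12.7 in MetR_CE (10.3), with overlap and a change of -0.33 (edgeR adjusted p = 0.0273). Cth lay at 7.37 to 11.4 CPM in Ctrl_CE (median 10.2) and 4.21 to 7.52 in MetR_CE (5.62), also with overlap, and fell by 0.78 (adjusted p = 0.0185). With all libraries in the model neither was called (adjusted p = 0.114 and 0.415), and with only the compared groups Ahcy was not (adjusted p = 0.0662).

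Mat1a, Bhmt and Bhmt2 were near 0 in most fat libraries, and no fold change within fat is given for them. Mat1a had 0 counts in 17 of 26 iBAT, 19 of 27 iWAT and 5 of 24 eWAT libraries, Bhmt in 22, 17 and 10 and Bhmt2 in 24, 25 and 13. In iBAT, 126 of the 143 Mat1a counts came from Ctrl_RT replicate 5, which also held 27 Bhmt counts and a summed hepatocyte marker level of 66.9 CPM, against 1.59 to 7.50 in the other 5 Ctrl_RT libraries. The Mat1a calls in iBAT were lost without that library (adjusted p = 0.501, 0.767 and 0.456 in MetR_RT, Ctrl_CE and MetR_CE, edgeR). In iWAT Mat1a was called higher in Ctrl_CE (adjusted p = 0.00434) and MetR_CE (adjusted p = 0.0227), where 3 libraries of each group held 6 to 30 counts, and was called in neither with DESeq2 (adjusted p = 0.0589 and 0.157). In eWAT the highest Mat1a level, 16.1 CPM, was in a MetR_CE library with a summed hepatocyte marker level of 234.1 CPM. Spearman's rho between that sum and Mat1a was 0.689 over 24 eWAT, 0.389 over 26 iBAT and 0.107 over 27 iWAT libraries, and for Bhmt it was 0.806, 0.538 and 0.085, given as a description since all come from the same libraries' counts. The eWAT values leave out Ctrl_RT replicates 4 and 5, which held 6.79 and 21.3 CPM of Bhmt at marker sums of only 4.71 and 7.89 CPM.

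**Figure D4:**
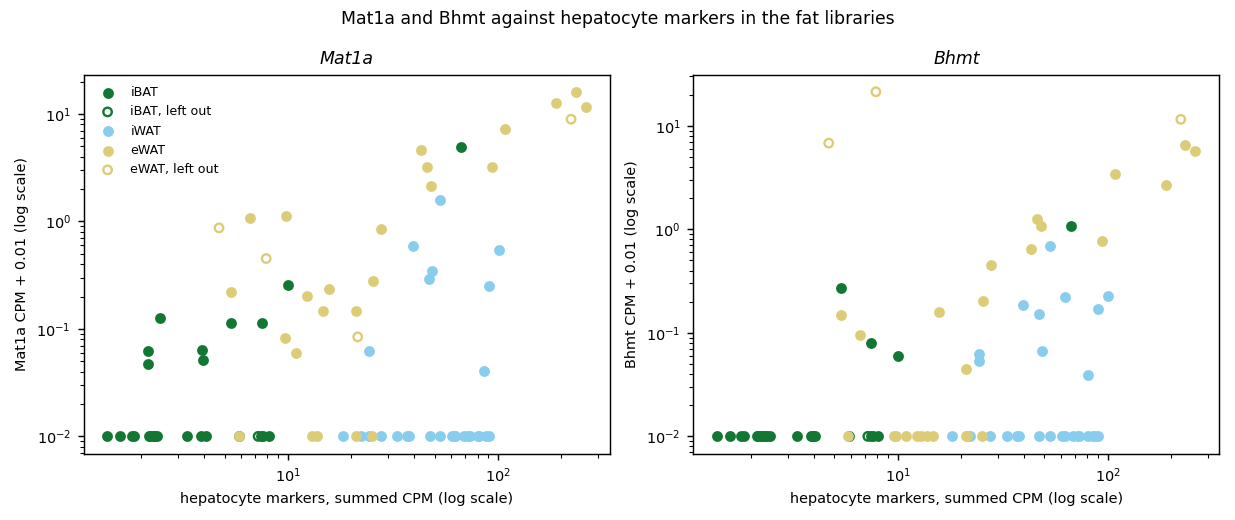
Mat1a (left) and Bhmt (right) CPM + 0.01 on a log y axis against the summed CPM of 10 hepatocyte markers on a log x axis, each point 1 fat library, with open points for libraries left out. The eWAT libraries with the highest marker sums hold the highest Mat1a, and most iBAT and iWAT libraries lie at 0.

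The diet response at room temperature was compared between tissues in a joint model. That edgeR model did not take account of the tissues coming from the same mice. The Mat2a response was higher in liver than in iBAT (difference of log2 fold changes 0.69 ± 0.11, edgeR adjusted p = 5.2e-06, 4.46% of all genes called) and than in iWAT (0.54, adjusted p = 0.000115, 12.6% called). That of Mat2b was higher in liver than in iBAT (0.30, adjusted p = 0.00848), and Mtr rose in liver and fell in iWAT (0.78, adjusted p = 1.13e-05). No member was called between iWAT and eWAT by edgeR (5.27% called).

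The cold response on Ctrl diet was compared in the same model. For Mtr the liver value exceeded that in iBAT by 0.89 (edgeR adjusted p = 7.73e-07, 15.7% of all genes called) and that in iWAT by 1.19 (adjusted p = 6.03e-11, 19% called). For Cbs it exceeded them by 1.72 (adjusted p = 0.0352, with few counts in iBAT) and 1.63 (adjusted p = 0.00165). The Mat2a value was lower in liver than in iBAT (-0.34, adjusted p = 0.0274), and the Mat2b value lower than in iWAT (-0.21, adjusted p = 0.0316). With the mouse as a block in limma voom, Mat2a, Cbs and Mat2b were not called in these comparisons (adjusted p = 0.119 and 0.242 against iBAT and 0.0907 against iWAT). No member was called between iWAT and eWAT by edgeR (6.86% called).

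**Figure D5:**
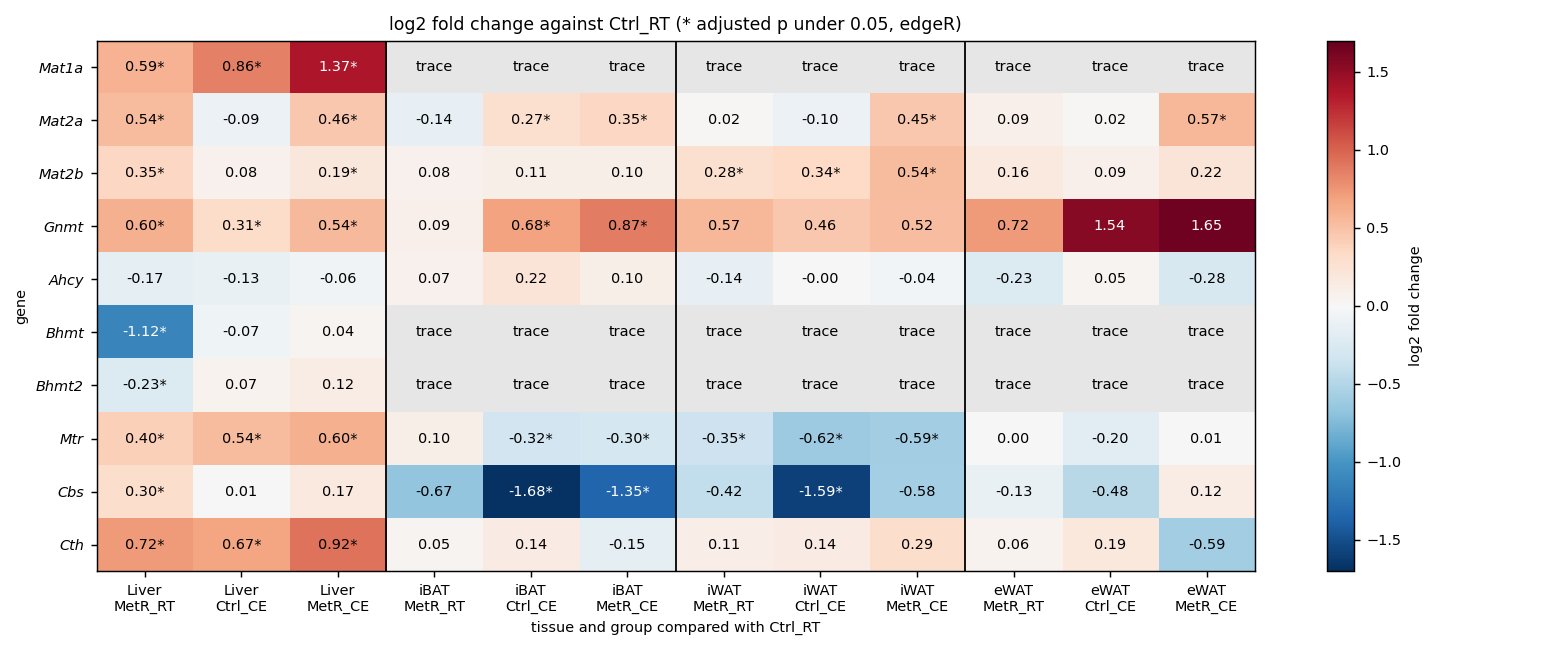
Log2 fold change of each gene (rows) against Ctrl_RT in each tissue and group (columns), as colour and number, with an asterisk for an edgeR adjusted p under 0.05 and "trace" for genes near 0. Mtr is red in liver and blue in iWAT and in both cold groups of iBAT, Bhmt is -1.12 in MetR_RT liver and near 0 in both cold groups, and Mat2a reaches 0.45 in MetR_CE iWAT and 0.57 in MetR_CE eWAT.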

How the data were processed

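Liver, iBAT, iWAT and eWAT of 28 mice gave 110 libraries. Libraries were mRNA-selected from RNA of good integrity. Deposited tables give whole-number counts per gene, not normalised by the authors. The study's methods name STAR 2.7.9a, featureCounts 2.0.3, Salmon 1.9.0 and MultiQC 1.19, and do not settle which counter made the tables. The study tested with DESeq2 1.46.0. Of 56884 gene IDs, 51948 matched GENCODE vM21 (GRCm38), which gave names, lengths and positions. Of those, 51913 carry another version than vM21, so lengths and positions are approximate to the tables' annotation. All columns were mapped to a sample and 0 were unused.

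Counts were normalised by TMM and tested in edgeR 4.0.16 (R 4.3.3) by the quasi-likelihood test, per tissue, with diet, temperature and their interaction. Genes with fewer than 10 counts over a tissue were dropped. Adjusted p are Benjamini-Hochberg over all genes tested, called under 0.05, and 1.5-fold is an absolute log2 fold change of 0.585. Levels and statements of overlap between groups are in normalised CPM unless TPM is named. Groups apart in CPM can overlap in TPM, and groups that overlap in CPM can lie apart in TPM. Log2 CPM used a prior count of 2. Differences between tissues came from 1 joint fit over all 4 tissues. TPM used the summed exon length. The Mat2a to Mat1a ratio was tested by exact permutation. The edgeR test recovered 199, 199, 176 and 147 of 200 genes changed in simulated counts of liver, iBAT, iWAT and eWAT. The planted changes exceeded most called changes of the members, and the changed genes had more counts than several members held in fat. Recovery of smaller changes or at lower counts was not measured.

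All 10 genes are named in every tissue. Of the 2 further lists, up to 4 genes per tissue with the largest changes among those called with restriction at room temperature were named, and others that were named beyond these were chosen after their values were seen. The genes most like a member were the 3 with the highest Spearman correlation, for the 4 members with the largest changes in liver. The members and lists were chosen with earlier results of these data known. Some genes that these rules name are not reported here.

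The 5 libraries left out are iBAT Ctrl_CE replicate 5, eWAT Ctrl_RT replicates 2, 4 and 5, and eWAT MetR_RT replicate 7, found by comparing each subset's mean counts with the study's source data. The alternatives were DESeq2 1.42.0, RLE factors, filterByExpr or no filter, only the compared groups, all libraries, the replicate number as a block, groups by the tag of 3 iBAT libraries or without them, each eWAT Ctrl_RT library left out, and limma 3.58.1 voom with the mouse as a block. A further one, iBAT without the Ctrl_RT library highest in hepatocyte markers, was added after seeing the data. Each library comes from another mouse within a tissue. A count of 3, the floor, corresponded to 0.0897 to 0.429 CPM in liver and 0.0899 to 0.237 in the fat tissues, and covers counting error only.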

Additional observations from a re-analysis of the deposited data

Results flagged for a closer look

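Groups of 4 to 7 libraries were tested where the highest count was at least 10. Of these 138 groups, 18 held a library whose gap to the next exceeded the critical value of Dixon's test at 95%. Chance flags about 1 in 20. In liver this was 1 group, Mat1a in Ctrl_CE, whose highest library had 8046 CPM against 5943 for the next. In iBAT the highest Ctrl_RT library had 4.95 CPM of Mat1a against 0.117 and 1.06 of Bhmt against 0.0691. There the highest Ctrl_CE library had 9.87 CPM of Gnmt against 5.67, and the lowest MetR_CE library 12.1 of Mtr against 14.3.

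In iWAT the highest Ctrl_CE library had 1.57 CPM of Mat1a (next 0.578), 0.681 of Bhmt (0.178) and 2.15 of Gnmt (1.09). The highest Ctrl_RT library had 19.4 CPM of Cbs (9.09), the highest MetR_RT library 25.1 of Mtr (22.0) and the highest MetR_CE library 17.95 of Cth (9.75). In eWAT the highest Ctrl_RT library had 1.06 CPM of Mat1a (0.137), 1.60 of Gnmt (0.512) and 66.4 of Mat2b (59.8). The highest MetR_RT library had 3.18 CPM of Mat1a (0.846) and another 17.9 of Cth (9.13), and the highest MetR_CE library 7.40 of Gnmt (2.78) and 0.877 of Bhmt2 (0.24).

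The diet effect differed between temperatures for Bhmt in liver (1.23 on the log2 scale, edgeR adjusted p = 0.00937) and Mat2a in iWAT (0.53, adjusted p = 0.0194). The diet response at room temperature differed between liver and iBAT for Mat1a (6.08, adjusted p = 0.0403), Mat2a (0.69, adjusted p = 5.2e-06) and Mat2b (0.30, adjusted p = 0.00848), and between liver and iWAT for Mat2a (0.54, adjusted p = 0.000115) and Mtr (0.78, adjusted p = 1.13e-05). The cold response differed between liver and iBAT for Mat1a (5.34, adjusted p = 0.0119), Mat2a (-0.34, adjusted p = 0.0274), Mtr (0.89, adjusted p = 7.73e-07) and Cbs (1.72, adjusted p = 0.0352). Between liver and iWAT it differed for Mat2b (-0.21, adjusted p = 0.0316), Mtr (1.19, adjusted p = 6.03e-11) and Cbs (1.63, adjusted p = 0.00165). Both Mat1a values rest on iBAT Ctrl_RT replicate 5, with 126 of the 143 iBAT counts, and were 2.46 (adjusted p = 0.662) and 2.81 (adjusted p = 0.588) in limma voom with the mouse as a block, so no difference is read from them.

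The eWAT libraries left out of the model held values above all 24 kept libraries. In Ctrl_RT replicate 2 these were Ahcy at 20.5, Mtr at 65.1, Cbs at 73.7 and Cth at 82.3 CPM, where the kept libraries reached 16.5, 33.6, 18.04 and 17.9. The summed level of epididymal epithelium markers was 8865 CPM in Ctrl_RT replicate 2 and 1276 in MetR_RT replicate 2, the kept library with the highest Cbs and Cth. It was at most 109 in the other 26 eWAT libraries, and its part in these values was not tested. Ctrl_RT replicate 4 had 17.6 CPM of Ahcy, 6.79 of Bhmt and 38.3 of Mtr, and Ctrl_RT replicate 5 had 21.3 of Bhmt and 40.7 of Mtr. MetR_RT replicate 7 had 16.98 CPM of Ahcy, 11.53 of Bhmt, 1.04 of Bhmt2 and 43.8 of Mtr. The kept libraries reached 6.46 of Bhmt and 0.994 of Bhmt2.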

How the results depend on the processing

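Over 210 alternatives of a count of called members or of the ratio, 184 stayed within 1.5 times the count or within the spread and 26 moved. Over 462 of a single member, 426 kept direction and call, 36 lost the call and 0 reversed. Where a setting gave no adjusted p for a called member, as for Mat1a and Bhmt in iBAT with DESeq2, that case was not among the 462. The liver interaction called 2 members rather than 1 with DESeq2 and with filterByExpr. Restriction in iBAT called 0 rather than 1 with DESeq2, filterByExpr, the compared groups only and without Ctrl_RT replicate 5. MetR_CE against Ctrl_CE in iWAT called 1 rather than 2 with RLE factors, no filter, the compared groups only and the replicate block. In eWAT, cold on Ctrl diet called 1 rather than 0 with DESeq2 and with all libraries, and the interaction 1 rather than 0 with DESeq2 and the replicate block. MetR_CE against Ctrl_RT called 3 with DESeq2, 2 with filterByExpr and the replicate block and 4 with all libraries, rather than 1. MetR_CE against MetR_RT called 0 rather than 1 with no filter, the compared groups only and the replicate block, and MetR_CE against Ctrl_CE 1 rather than 3 with all libraries. The cold response of liver against iBAT called 2 with all libraries and 1 with limma voom, rather than 4, and limma voom called 2 and 1 rather than 0 for cold and for diet between iWAT and eWAT. The cause of these moves was not tested. The replicate numbers mark different mice and do not pair the samples, whose same-number deviations correlated from -0.55 to 0.62. With the replicate block the Bhmt interaction in liver was 1.24 (adjusted p = 0.0165) and that of Mat2a in iWAT 0.54 (adjusted p = 0.0204), and calls were lost for Mat2b and Gnmt in liver (adjusted p = 0.0659 and 0.0523), Mat1a and Bhmt in iBAT, Mat2b in iWAT (adjusted p = 0.0905) and Mat2a in eWAT (adjusted p = 0.0639). Leaving out each eWAT Ctrl_RT library changed no count. Mat1a, Bhmt and Bhmt2 were near the floor of 3 counts in most iBAT and iWAT libraries and cannot be compared there at this depth. In eWAT, Mat1a was over 3 counts in 17 of 24 libraries and Bhmt in 12, with up to 551 and 221 counts. Their levels there varied widely between libraries of a group.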

Other observations

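In brown fat 5 of 8 genes of cysteine use fell and 1 rose in Ctrl_CE, where 17.9% of all genes fell and 15.3% rose. Sqor, the mitochondrial sulphide oxidase, had means of 57.9 CPM in Ctrl_RT and 21.5 in Ctrl_CE, a fall of 1.43 on the log2 scale (edgeR adjusted p = 3.62e-14), and Csad fell by 0.62 (248.3 to 161.0 CPM, adjusted p = 1e-06). Gclm was the gene that rose, by 0.47 (adjusted p = 0.000475), and it also rose with restriction at room temperature, by 0.63 (57.8 to 89.6 CPM, adjusted p = 0.00016). Of 10 support genes tested, Sardh, which demethylates the product of the Gnmt reaction, and Chdh, which makes the betaine that the Bhmt reaction uses, fell by 0.92 (adjusted p = 1.78e-09) and 1.11 (adjusted p = 5.23e-08) in Ctrl_CE, while Mmachc rose by 0.62 (adjusted p = 1.67e-10). These genes were named after their values were seen.

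In inguinal fat, Cdo1, which oxidises cysteine to its sulphinic acid, rose by 0.45 in MetR_RT (1069 to 1465 CPM, edgeR adjusted p = 0.0113) and by 0.57 in Ctrl_CE (adjusted p = 0.00132). In epididymal fat neither list had a gene called in MetR_RT (0 of 11 and 0 of 8 by edgeR, where 0.148% of all genes were called), and in Ctrl_CE Csad fell by 0.63 (373.1 to 241.5 CPM, adjusted p = 0.00281).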
